A study of Mus musculus with 6 samples.

Results

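The dopamine receptors of this mouse neurotransmission array are 12 spotted oligonucleotides (oligos) whose printed class is dopamine receptors. They belong to 6 sequence entries with 2 oligos each and fill 24 spots, out of 590 gene oligos in 289 entries and 1192 gene spots. All 12 were kept, and the oligos of an entry were kept apart. Their RNA was compared between cortex and thymus of adult B10D2 mice. Total RNA of 6 cortices was combined into a single pool and that of 5 thymi into another, and the labels name no treatment. From each pool, 15 µg per array was reverse transcribed with random hexamers, labelled with Cy5 and hybridized to 3 arrays. The 3 arrays of a tissue therefore repeat the hybridization of 1 pool, and every p-value below measures the spread between hybridizations and none the spread between animals.

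Dopamine receptors are membrane receptors that signal through G proteins, and they fall into a pair of classes. Receptors of the D1 class raise cyclic AMP through stimulatory G proteins, while receptors of the D2 class (Drd2, Drd3 and Drd4) lower it through inhibitory G proteins and open G-protein-gated potassium channels. In the brain they receive dopamine from midbrain neurons, and dopamine receptors have also been described on cells of the immune system. The entries printed d2 and d3 carry accessions that the RefSeq gene table pairs with Drd2 and Drd3. The entry printed d4 was assigned to Drd4, and 2 entries printed d1a (AF171079 and M35077) to Drd1, by printed class and name. The species of the sequences behind these 3 entries was not checked. The entry printed d1p (L20330) was paired with no gene by the tables used here and keeps its printed name. Drd5, the other member of the D1 class, has no oligo printed under its name in the class.

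The oligo sequences were not used here, so the genes are shown by the RefSeq promoter stretch of the 3 receptors with an oligo that differed between the tissues and a gene name from the tables. Each line gives the bases from 250 to 51 before a RefSeq transcript start of GRCm38.p6, 5′ to 3′ on the gene's strand. Capitals mark the GC box GGGCGG or its reverse complement CCGCCC. Drd2 lies at chr9:49340153-49340352, Drd3 at chr16:43761971-43762170 and Drd4 at chr7:141291768-141291967. All are on the plus strand, each before a start inside the gene's listed span.
Drd2: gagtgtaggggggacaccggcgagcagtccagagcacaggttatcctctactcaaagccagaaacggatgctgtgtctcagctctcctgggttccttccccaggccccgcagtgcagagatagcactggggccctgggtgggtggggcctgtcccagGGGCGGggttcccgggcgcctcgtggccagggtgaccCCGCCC
Drd3: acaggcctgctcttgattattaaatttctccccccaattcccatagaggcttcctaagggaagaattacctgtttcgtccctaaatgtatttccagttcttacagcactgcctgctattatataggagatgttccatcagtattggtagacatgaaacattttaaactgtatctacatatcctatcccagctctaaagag
Drd4: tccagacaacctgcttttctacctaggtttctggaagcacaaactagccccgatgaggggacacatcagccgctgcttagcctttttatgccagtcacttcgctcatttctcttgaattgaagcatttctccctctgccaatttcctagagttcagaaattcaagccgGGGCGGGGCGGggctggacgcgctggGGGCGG
The Drd2 stretch held 2 GC boxes and the Drd4 stretch 3, of which the first 2 overlap by a base. The Drd3 stretch held 0. A GC box on either strand was present in 24.6% of 32851 RefSeq promoter stretches of this length. The TATA motif TATAAA or its reverse complement TTTATA was in none of the 3 stretches and in 9.14% of all. The GC content was 67.5% for Drd2, 39.5% for Drd3 and 54% for Drd4, against a median of 51.5% over all stretches. These matches are descriptions of letters, not binding sites.

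One Drd2 oligo, which was above background on cortex arrays alone and entered the test through them, was higher in cortex. After the arrays were scaled to a common distribution of intensities, both Drd3 oligos, 1 of 2 Drd4 oligos and 1 of 2 d1p oligos were higher in thymus. Without any scaling the Drd2 call alone remained and oligo 1 of Drd3 turned to 0.11. None of the 3 tested Drd1 oligos differed past the threshold. Of the 9 oligos tested, 5 passed (limma, Benjamini-Hochberg adjusted p under 0.05 over all 465 tested oligos), 1 higher in cortex and 4 higher in thymus. Over all tested oligos 47.7% passed, 24.3% higher in cortex and 23.4% higher in thymus, so the share of the receptors that passed, 55.6%, was near the background. The median difference, cortex minus thymus, was -0.65 over the 9 receptor oligos and -0.10 over all tested oligos on the log2 scale. In RNA from whole tissue, fewer cells of a type and less RNA per cell cannot be told apart.

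The arrays differed in brightness and in recorded spot diameter, which bears on every value below. The median net signal of gene spots, foreground minus local background, ran from 822 to 2502 on cortex arrays and from 469 to 928 on thymus arrays. A pair of numbers in the image name of each header was taken as the scan setting, and its meaning was not checked. By it, cortex 1, cortex 2 and thymus 1 shared a setting, and cortex 3 and thymus 2 shared another. Thymus 3 had a setting of its own. The recorded median spot diameter was 16, 17 and 14 on cortex 1, cortex 2 and thymus 1. On cortex 3, thymus 2 and thymus 3 it was 8, 7 and 8. Correlations were taken on quantile-scaled log2 values of the tested oligos with a value on every array. They were r = 0.90 to 0.94 between cortex arrays, 0.82 to 0.89 between thymus arrays and 0.48 to 0.60 between tissues. The tissue labels were checked against marker genes. Of 6 oligos of the neuronal genes Eno2 and Gad2, 5 were higher in cortex (limma, adjusted p under 0.05). The summed intensity of the 5 with a value on every array ran from 28892 to 54852 on cortex and from 5441 to 7147 on thymus arrays. Gad2 was assigned to the entries printed gad65 and GAD67, and this conflict of printed names was not resolved. The oligo that did not pass (0.12 ± 0.38, limma adjusted p = 0.845) belongs to the entry printed GAD67. The other brain markers were mixed. Of the astrocyte gene Slc1a3, 1 of 2 oligos was higher in cortex (1.76 ± 0.39, limma adjusted p = 0.00127), and the summed intensity of both ran from 3884 to 8543 on cortex and from 1558 to 2523 on thymus arrays. The 2 oligos of the myelin gene Mbp opposed each other. Oligo 1 was higher in cortex (3.66 ± 0.41, limma adjusted p = 4.56e-06). Oligo 2 was higher in thymus (-1.44 ± 0.36, limma adjusted p = 0.00348), against the use of Mbp here as a brain marker. Which Mbp transcripts each oligo reads was not checked. Oligo 2, the Mbp oligo with a value on every array, ran from 1273 to 1770 in intensity on cortex and from 3492 to 5683 on thymus arrays. None of the thymocyte or thymic epithelium markers looked for has an oligo on the array. Of the B-cell gene Pax5, 1 of 2 oligos was higher in thymus, and the summed intensity of both ran from 1157 to 1640 on cortex and from 2756 to 3761 on thymus arrays. The part of tissue composition in the receptor differences was not tested.

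The receptors were detected on more cortex than thymus arrays. An oligo counted as above background where most of its unflagged spots had a median over the local background median plus 2 SD of the background pixels. Of the 12 receptor oligos, 12, 11 and 7 were above background on cortex 1, 2 and 3, and 7, 3 and 5 on thymus 1, 2 and 3. This made 30 of 36 oligo measurements in cortex (83.3%) and 15 of 36 in thymus (41.7%). All gene oligos moved the same way, from 86.3%, 81.0% and 70.8% on the cortex arrays to 66.9%, 45.9% and 47.8% on the thymus arrays, and the thymus arrays were also the dimmer ones by median net signal except that thymus 1 exceeded cortex 3. The part of array brightness in the receptors' detection was not tested. Both oligos of Drd4 and oligo 2 of d1p were above background on all 6 arrays. Both oligos of Drd2, oligo 2 of AF171079 (Drd1) and oligo 1 of d1p were above background on none of the 3 thymus arrays. Spots of one oligo on one array differed by a median of 0.36 (log2) for the receptors and 0.37 for all oligos with 2 spots.

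**Figure D1:**
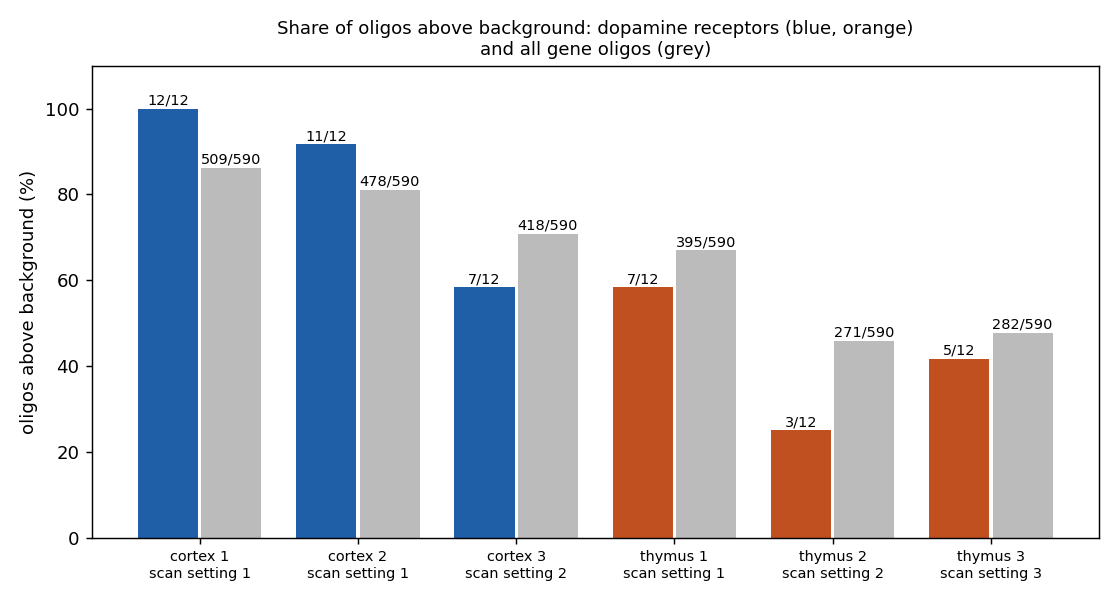
Share of oligos above background (y axis, percent) on each array (x axis, with its scan setting); coloured bars are the 12 dopamine receptor oligos, blue for cortex and orange for thymus, grey bars all 590 gene oligos, and the counts stand above the bars. The receptors range from 58.3% to 100% on cortex arrays and from 25% to 58.3% on thymus arrays, and all gene oligos fall from cortex to thymus as well.

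Drd2 encodes the D2 receptor, which inhibits adenylyl cyclase and also serves as the autoreceptor of dopamine neurons. Its oligo 2 was higher in cortex on every array. The log2 intensity after scaling was 10.12, 10.47 and 9.32 on cortex 1 to 3 and 9.27, 8.74 and 7.57 on thymus 1 to 3. The tissues did not overlap, though cortex 3 and thymus 1 were nearly equal, and the thymus arrays spread widely. The difference was 1.44 ± 0.44 (SE, n = 3 hybridizations of 1 pool per tissue, limma adjusted p = 0.0129). No thymus array was above background, so the fold was taken between tissue means with a floor in thymus. Each thymus array took the higher of the oligo's own value and the lowest value among oligos above background. The cortex mean stood 1.17-fold above that thymus mean. Single arrays did not all do so, since cortex 3 (9.32) lay below the floor of thymus 2 (10.07) and of thymus 3 (9.88). The same calculation for oligo 1 of Drd2 gave -0.46 (log2), so it bounds no excess in cortex. Before scaling, the net signal was 2228, 2075 and 379 in cortex and 423, 20 and -54.2 in thymus.

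Within the scan setting that held cortex 1, cortex 2 and thymus 1, oligo 2 of Drd2 differed by 1.02, and within the setting of cortex 3 and thymus 2 by 0.58. In fits with an array left out, here and below, an oligo had to be above background on 2 arrays in place of 3. The call was lost without cortex 2 (difference 1.16, adjusted p = 0.0916), without thymus 3 (0.98, adjusted p = 0.0672) and with plain background subtraction (4.17 ± 1.47, adjusted p = 0.0596, limma in each). Oligo 2 was left out of the test with a background limit of 3 SD. Oligo 1 of Drd2 was not tested, being above background on 2 cortex arrays alone. Its values were 9.33, 9.34 and 9.16 in cortex and 6.90, 8.08 and 9.53 in thymus, where the array with the highest value exceeded all of cortex. In a fit without the filter it differed by 1.10 ± 0.53 (limma adjusted p = 0.113), in the direction of oligo 2 and short of the threshold.

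Drd3 encodes the D3 receptor, a D2-class receptor known chiefly from limbic brain regions. Both of its oligos were higher in thymus. Oligo 2 read 9.0, 8.87 and 8.57 on the cortex arrays and 10.69, 10.41 and 10.24 on the thymus arrays. The tissues stood well apart, and the spread within each (SD 0.22 in cortex, 0.23 in thymus) was small beside the gap. The difference was -1.64 ± 0.35 (limma adjusted p = 0.000998). Oligo 2 was above background on 2 cortex arrays and on 1 thymus array, thymus 1, so the brighter tissue rests on 1 array with a signal above that limit, and no fold is given. Net signals before scaling were 900, 507 and 81.5 in cortex and 1371, 544 and 558 in thymus. They overlap, since cortex 1 exceeded 2 thymus arrays.

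Within the scan settings the difference of Drd3 oligo 2 was -1.76 and -1.84. The call was kept with each array left out in turn (limma adjusted p between 0.00126 and 0.0110). It was lost without any scaling (-0.86 ± 0.73, limma adjusted p = 0.442), where every tested receptor oligo had the same SE. Stricter background filters left this oligo out of the test. Oligo 1 of Drd3 read 9.15, 9.66 and 9.59 in cortex and 10.18, 10.30 and 10.55 in thymus. Again all thymus arrays lay above all cortex arrays, and this oligo was above background on 3 cortex and 2 thymus arrays. Its difference was -0.87 ± 0.35, or 1.83-fold higher in thymus, just inside the threshold (limma adjusted p = 0.0472), and it turned to 0.11 without scaling. Within the scan settings it was -0.77 and -0.71. Leaving out any 1 array ended the call (adjusted p between 0.0658 and 0.222), as did spot means, no filter and a block for scan setting (adjusted p between 0.0549 and 0.0706, limma in each). Thymus 3 is alone in its scan setting, so it adds nothing to the tissue difference in any fit with that block.

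Drd4 encodes the D4 receptor, a D2-class receptor found in prefrontal cortex and retina. One of its oligos was higher in thymus, and both were above background on every array. Oligo 1 read 11.32, 11.45 and 11.43 in cortex and 12.72, 13.29 and 11.83 in thymus. The cortex arrays were nearly equal and the thymus arrays all higher, thymus 3 least so. The difference was -1.22 ± 0.39, or 2.32-fold higher in thymus (limma adjusted p = 0.0170), and -1.34 and -1.86 within the scan settings. The call was lost without cortex 1, cortex 2, thymus 1 or thymus 2 (limma adjusted p between 0.0538 and 0.0893). It was also lost with plain background subtraction (limma adjusted p = 0.0671). Centring on control genes gave -0.54 (limma adjusted p = 0.373), and no scaling gave -0.13 (limma adjusted p = 0.926). Before scaling its net signals overlapped, at 6037, 4709 and 1925 in cortex and 7503, 4917 and 2032 in thymus.

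Oligo 2 of Drd4 read 12.58, 12.15 and 12.23 in cortex and 13.48, 12.33 and 13.11 in thymus. Thymus 2 lay below cortex 1, so the tissues overlapped. Its difference of -0.65 ± 0.38 did not pass (limma adjusted p = 0.176), and it turned to 0.22 without scaling. The within-setting values were -1.11 and -0.10. No receptor spot was saturated.

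Drd1 encodes the D1 receptor, the main stimulatory dopamine receptor of forebrain neurons. None of its 3 tested oligos differed past the threshold. Oligo 1 of AF171079 read 9.50, 10.33 and 9.51 in cortex and 10.22, 9.30 and 9.73 in thymus, with each tissue holding a high and a low array. The difference was 0.03 ± 0.38 (limma adjusted p = 0.966). Oligo 2 of AF171079 was above background on 2 cortex arrays and on 0 thymus arrays and was not tested. It read 8.81, 8.94 and 9.15 in cortex and 8.81, 8.18 and 9.0 in thymus, and 0.30 ± 0.36 apart in the fit without the filter (limma adjusted p = 0.536).

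Oligo 1 of M35077 read 9.21, 9.03 and 9.57 in cortex and 9.69, 10.03 and 9.44 in thymus. The tissues overlapped between cortex 3 and thymus 3, and the difference was -0.45 ± 0.35 (limma adjusted p = 0.329). Oligo 2 of M35077 read 9.40, 8.74 and 9.85 in cortex and 9.42, 9.35 and 10.22 in thymus, overlapping throughout, with a difference of -0.33 ± 0.39 (limma adjusted p = 0.536). Both M35077 values turned positive without scaling (0.55 and 0.65) and with control-gene centring (0.14 and 0.24). Each Drd1 oligo was above background on at most 1 thymus array, and differences of this size could not be told from the spread between hybridizations.

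Of the entry printed d1p, oligo 2 was tested and oligo 1 was not, so their difference has no test. Oligo 2 read 10.26, 9.89 and 10.28 in cortex and 11.26, 10.95 and 11.81 in thymus, above background on all 6 arrays. Every thymus array exceeded every cortex array, and the difference was -1.20 ± 0.36, or 2.30-fold higher in thymus (limma adjusted p = 0.0115). Within the scan settings it was -1.19 and -0.68. The call was lost without cortex 2 (adjusted p = 0.0587), with control-gene centring (-0.55, adjusted p = 0.372) and without scaling (-0.14, adjusted p = 0.924, limma in each). On cortex 1, cortex 2 and thymus 1 the value of this oligo rests on 1 unflagged spot. Net signals before scaling overlapped, at 2527, 1314 and 815 in cortex and 2186, 839 and 1856 in thymus. Oligo 1 of d1p read 9.29, 9.57 and 9.30 in cortex and 8.96, 9.36 and 9.57 in thymus and was above background on 2 cortex arrays alone. It was not tested, and without the filter the difference was 0.09 ± 0.35 (limma adjusted p = 0.862).

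**Figure D2:**
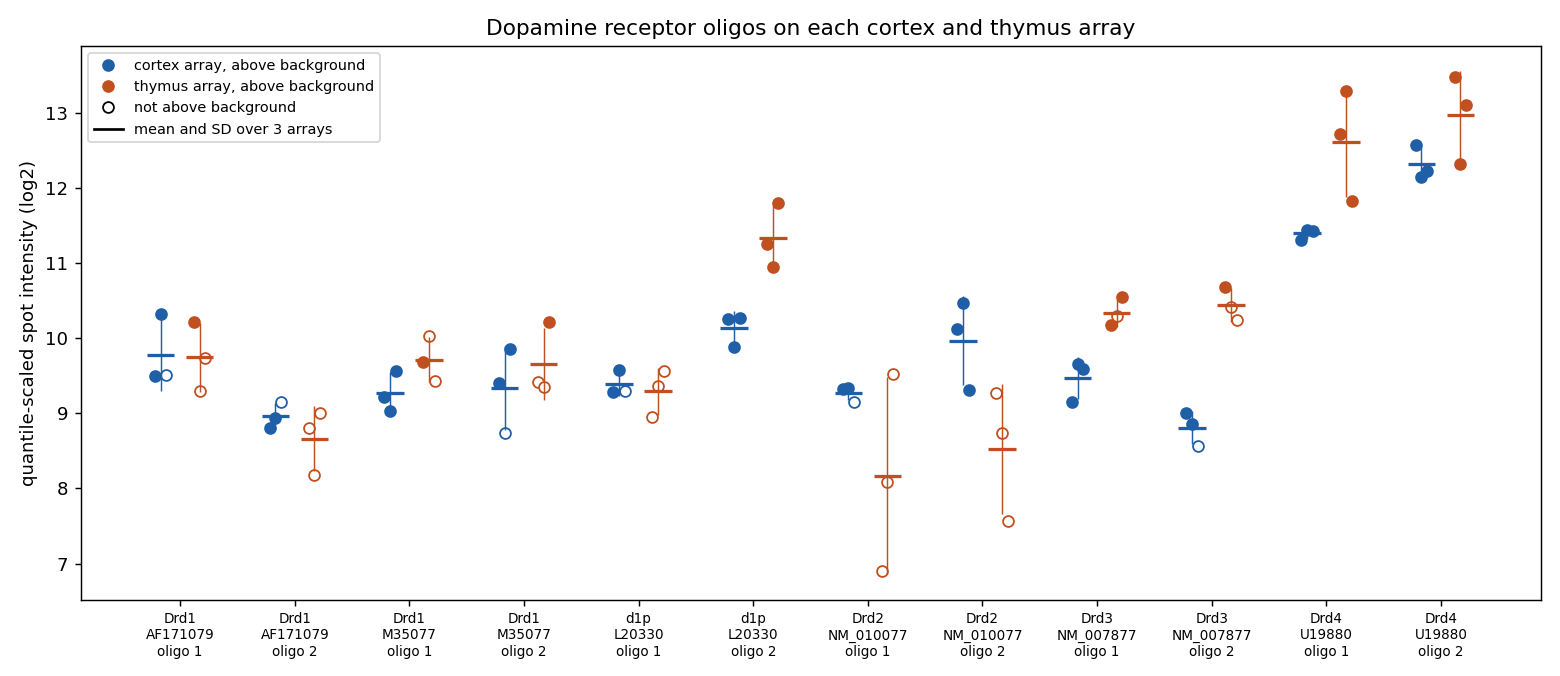
Quantile-scaled log2 intensity (y axis) of the 12 dopamine receptor oligos (x axis) on 3 cortex (blue) and 3 thymus (orange) arrays; filled points are above background, open points are not, and lines give the mean and SD over 3 arrays. Oligo 2 of Drd2 lies higher on the cortex arrays, while both Drd3 oligos, oligo 1 of Drd4 and oligo 2 of d1p lie higher on all thymus arrays; without scaling oligo 1 of Drd3 turns to 0.11. Heights of different oligos cannot be compared.

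Of the 9 tested receptor oligos, 5 had tissues that did not overlap, 1 with cortex above and 4 with thymus above. Over all 465 tested oligos 55.7% did not overlap, 26.5% with cortex above and 29.2% with thymus above. The 5 are the same oligos that passed the test.

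The scaling between arrays set the zero line of these differences. The median difference of all tested oligos was -0.10 with quantile scaling, -0.15 with each array centred on its median over all gene oligos, 0.45 with centring on the printed control genes and 0.84 with none. The receptors' differences are therefore also given relative to that median. Drd3 oligo 2 stood at -1.54, -1.72, -1.72 and -1.70 relative to the median under the 4 scalings in that order. Drd2 oligo 2 stood at 1.54, 1.26, 1.26 and 1.28. The last 3 scalings differ by a constant per array, so their near equality follows from how they are built and is no test of stability. Drd4 oligo 1 lay between -1.12 and -0.98, d1p oligo 2 between -1.10 and -0.98, and Drd3 oligo 1 between -0.77 and -0.74 relative to the median. In absolute terms, the 5 calls were kept with each array centred on its median over all gene oligos (limma, adjusted p under 0.05). With control-gene centring 2 of the 9 passed (limma, adjusted p under 0.05), Drd2 oligo 2 (1.71, adjusted p = 0.00229) and Drd3 oligo 2 (-1.27, adjusted p = 0.0255). Without scaling, Drd2 oligo 2 alone passed (2.12 ± 0.73, limma adjusted p = 0.0175). There, 0 receptor oligos stood on the thymus side with an unadjusted p under 0.05. The SE of 0.73 was the same for all 9 receptor oligos in the unscaled fit and is not the spread of any single oligo. Among them, passing depended only on the size of the difference, with the median of all tested oligos at 0.84. The same fit called 115 oligos of the whole array higher in cortex and 0 higher in thymus, with 6 on the thymus side under 0.05 before adjustment, and control-gene centring gave 137 and 29.

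**Figure D3:**
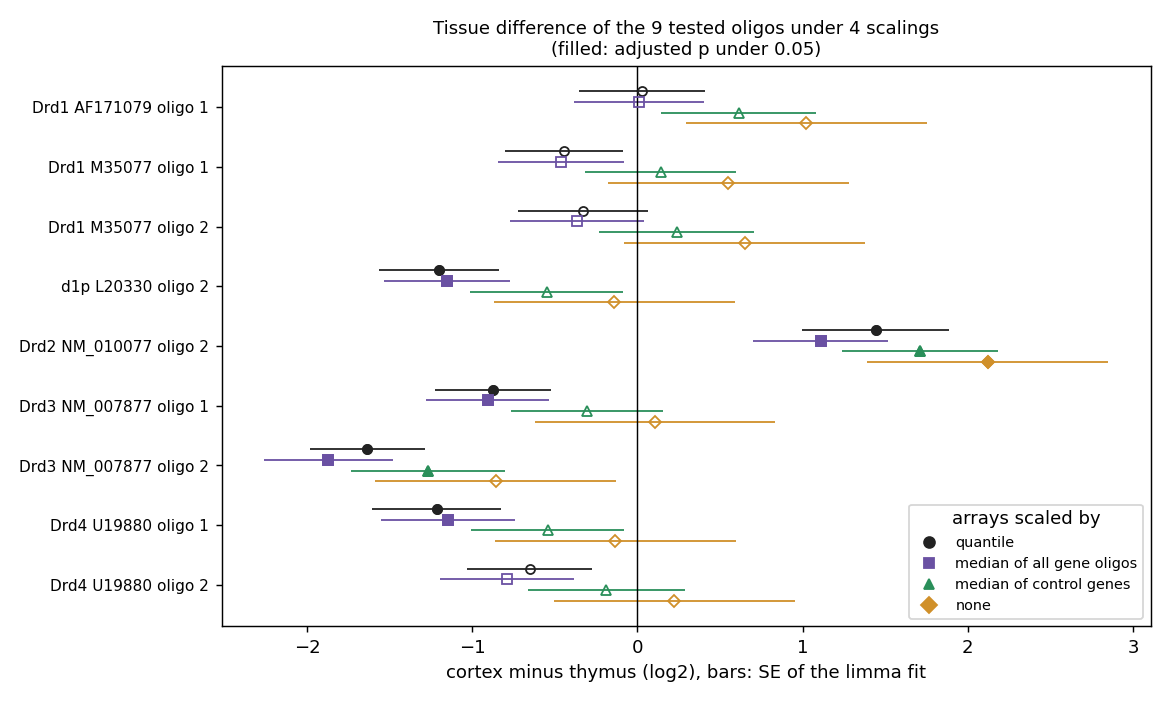
Cortex minus thymus (x axis, log2, bars are the SE of the limma fit) of the 9 tested dopamine receptor oligos (y axis) under 4 scalings of the arrays; filled symbols have an adjusted p under 0.05. Drd2 oligo 2 stays right of 0 and filled under all 4, but it was above background on 3 cortex and 0 thymus arrays. It thus entered the test through cortex, and without scaling the median of all tested oligos lies at 0.84. Drd3 oligo 2 stays left of 0 and filled under 3. Drd3 oligo 1, Drd4 oligo 2 and both M35077 oligos of Drd1 cross 0 without scaling (0.11, 0.22, 0.55 and 0.65).

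Each entry has a pair of oligos, and in 3 receptor entries both were tested. The pair test fitted the within-array difference of the 2 oligos, so that the scaling of an array largely cancels. For Drd3, oligo 1 minus oligo 2 was 0.15, 0.80 and 1.03 on the cortex arrays and -0.51, -0.11 and 0.30 on the thymus arrays. The tissues overlapped, and the 2 oligos' tissue differences were 0.76 ± 0.45 apart (limma adjusted p = 0.255 over 216 pairs). For Drd4 they were -0.57 ± 0.55 apart (limma adjusted p = 0.494), and for M35077 of Drd1 -0.12 ± 0.48 (limma adjusted p = 0.872). None of the 3 pairs passed, against 24.1% of all 216 pairs. That background count, 52 pairs, fell to 29 of 234 without cortex 3, to 32 of 224 without thymus 1 and to 4 of 219 without cortex 3 and thymus 2. A pair that did not pass is not shown to read alike. In all 3 pairs both oligos had the same sign under quantile scaling. Over the array, 74 of 216 pairs (34.3%) had opposite signs, and in 8 both oligos passed in opposite directions.

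**Figure D4:**
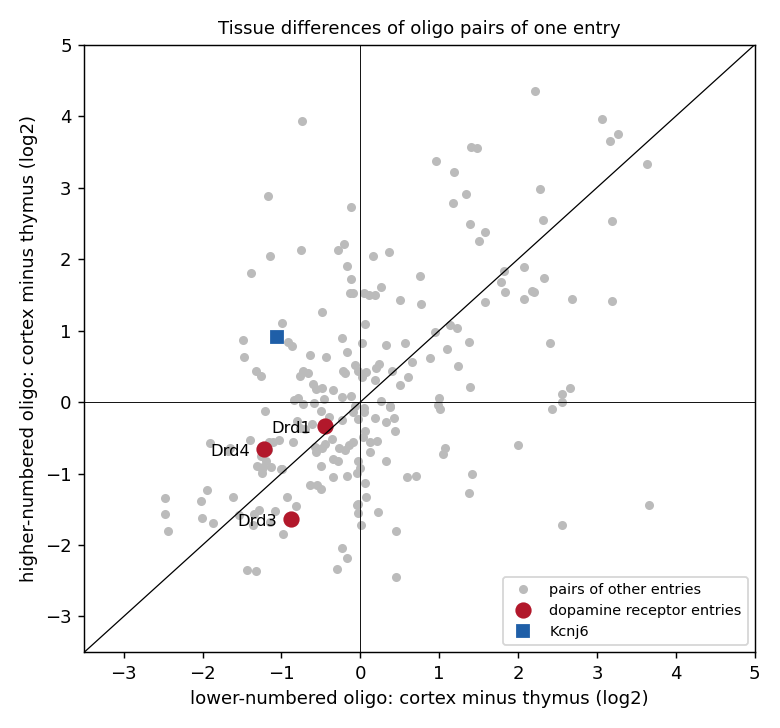
Cortex minus thymus (log2) of the lower-numbered oligo (x axis) against the higher-numbered oligo (y axis) of the same entry for 216 pairs with both oligos tested; red points are the Drd1 (M35077), Drd3 and Drd4 entries, the blue square is Kcnj6, grey points are other entries, and the diagonal marks equal differences. The 3 receptor pairs lie in the lower left quadrant under quantile scaling, where oligo 1 of Drd3, oligo 2 of Drd4 and both Drd1 oligos turn positive without scaling, and Kcnj6 lies in the upper left.

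Other genes of the dopamine pathway were read from a list of synthesis, breakdown and signalling genes, of which the array holds 9 genes with 18 oligos. Of 15 tested, 5 passed, 1 higher in cortex and 4 higher in thymus (33.3%, beside 47.7% of all tested oligos), with a median difference of -0.30. The split by direction turned with the scaling, to 3 higher in cortex and 0 in thymus with control-gene centring, 2 and 0 without scaling, and 0 and 3 with median centring (limma, adjusted p under 0.05). In synthesis, Th, the rate-limiting enzyme that makes the dopamine precursor, did not pass at either oligo (-0.23 ± 0.45 and 0.07 ± 0.41, limma adjusted p = 0.720 and 0.920). Dbh, which turns dopamine into noradrenaline, had 1 tested oligo at -0.72 ± 0.38 (limma adjusted p = 0.130).

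On the signalling side, both oligos of Arrb2, the beta-arrestin that binds phosphorylated receptors, were higher in thymus under quantile scaling and turned to 0.05 and 0.13 without scaling. Oligo 1 read 10.44, 10.86 and 10.45 in cortex and 11.94, 11.32 and 11.51 in thymus, and oligo 2 read 10.57, 10.98 and 10.14 in cortex and 11.01, 11.62 and 11.90 in thymus. The tissues did not overlap at either oligo. Their differences were -1.01 ± 0.35 and -0.94 ± 0.38 (limma adjusted p = 0.0266 and 0.0472). Prkaca, the catalytic subunit of protein kinase A that acts downstream of cyclic AMP, was at 0.66 ± 0.48 and 0.56 ± 0.36 and did not pass (limma adjusted p = 0.283 and 0.217). Adora2a, the adenosine receptor that is paired with Drd2 in striatal neurons, passed at oligo 2 (-0.997 ± 0.387, limma adjusted p = 0.0416), with tissues that overlapped between cortex 1 and thymus 3, and not at oligo 1 (-0.04 ± 0.39, adjusted p = 0.948). Tac1, the precursor of substance P, had 1 tested oligo at -0.30 ± 0.39 (limma adjusted p = 0.562).

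The potassium channels that D2-class receptors open through G proteins were on the array as Kcnj5, Kcnj6 and Kcnj9. The 2 oligos of Kcnj6 opposed each other. Oligo 1 read 11.96, 11.86 and 11.80 in cortex and 12.96, 12.99 and 12.83 in thymus, and oligo 2 read 11.22, 11.18 and 10.61 in cortex and 9.79, 10.35 and 10.15 in thymus. Neither oligo had overlapping tissues, and the first was higher in thymus (-1.06 ± 0.34, limma adjusted p = 0.0164) while the second was higher in cortex (0.91 ± 0.36, limma adjusted p = 0.0448). The 2 differences were -1.96 ± 0.43 apart in the pair test (limma adjusted p = 0.00405), so no direction is given for Kcnj6. Both Kcnj5 oligos (-0.49 and -0.64) and the tested Kcnj9 oligo (0.00) did not pass.

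The other amine receptor classes printed on the array were counted the same way. Of 11 tested adrenergic receptor oligos 5 passed, 0 higher in cortex and 5 higher in thymus, with a median difference of -0.91. Of 19 tested serotonin receptor oligos 10 passed, 1 higher in cortex and 9 higher in thymus, with a median of -0.74. The dopamine receptors, with 5 of 9 and a median of -0.65, were not tested against them. The printed control genes had 14 of 52 past the threshold and a median of -0.28. Over all tested oligos 47.7% passed, 24.3% higher in cortex and 23.4% higher in thymus. The array's 109 oligos higher in thymus became 29 with control-gene centring and 0 without scaling. The other amine receptor classes were counted under quantile scaling alone, so their directions are relative to that scaling.

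The oligos most like the 2 receptors at the ends of the range were found by Pearson's r of the log2 values over the 6 arrays, which also reflects any difference between the tissues. For Drd2 oligo 2, of 438 candidates of other entries, the closest were oligo 1 of parvalbumin (Pvalb, printed as paravulmin, r = 0.98, difference 1.22), oligo 2 of the GABA-A receptor entry printed a5p (r = 0.98, difference 1.89) and oligo 2 of parvalbumin (r = 0.97, difference 1.03). Parvalbumin is a calcium-binding protein of a class of inhibitory neurons. For Drd3 oligo 2, of 437 candidates, the closest were oligo 1 of Kcnj6 (r = 0.99, difference -1.06), oligo 2 of the entry printed rage (r = 0.99, difference -1.16) and oligo 2 of the somatostatin receptor Sstr3 (printed smstr3, r = 0.99, difference -1.58). The points of each r share the arrays, their brightness and the tissue contrast.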

How the data were processed

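Single-colour (Cy5) arrays, 3 of cortex and 3 of thymus, were grouped and numbered by their sample titles. The deposited values were spot intensities on the scanner's linear scale; per the file headers, spots were segmented automatically with a local background and no normalization is recorded. A flag, another deposited value, marks spots left out here. Foreground medians were corrected with normexp (offset 50) in limma 3.58.1 under R 4.3.3, fitted on all spots; the spots of an oligo were averaged as log2 values and arrays quantile-scaled. The test (lmFit, then eBayes, two-sided, Benjamini-Hochberg adjusted, threshold 0.05) took oligos with 2 or more values in each tissue that were above background (2 SD) on 3 or more of the 6 arrays. Pairs of oligos of an entry were fitted in the same way on their within-array difference. The fits were tested on simulated data. Python 3.11.15 with pandas 2.3.3, numpy 2.4.6 and matplotlib 3.10.9 read the files and drew the figures. The members, lists and alternatives were chosen with earlier results of these data known. All receptor oligos are named, with every pathway gene on the array and, for the receptor oligos with the largest difference in each direction, the 3 most correlated oligos of other genes. RefSeq tables of GRCm38.p6 gave names and promoters. The deposited table of processed values holds 20 probes, none of them a dopamine receptor, and was not used. The number of arrays limits the precision.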

Additional observations from a re-analysis of the deposited data

How the results depend on the processing

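The count of all oligos past the threshold fell from 222 to 115 without scaling and ran from 168 to 222 with each array left out. The receptors' count of 5 became 3 with plain background subtraction, 1 without scaling and 2 with control-gene centring. It became 3 with a background limit of 3 SD (5 oligos tested) and 3 without cortex 3 and thymus 2. That last alternative was chosen after seeing the data and kept thymus 3, an array of like spot diameter. With each array left out the receptors' count ran from 1 (without cortex 2) to 4. Fits with arrays left out also lowered the filter from 3 arrays above background to 2, which put 12 receptor oligos under test in 4 of the 6 fits; the array and the filter were not varied apart. The pathway count of 5 became 1 with subtraction, 2 without scaling and 1 without cortex 3 and thymus 2. It became 3 each with control-gene centring, median centring, no filter, flagged spots kept and the replicate block. With each array left out it ran from 2 to 4. The 52 oligo pairs became 4 without cortex 3 and thymus 2 and ran from 29 to 57 with each array left out. The gap in receptor detection, 41.7 percentage points, ran from 33.3 to 54.2 with each array left out and was 30.6 with a limit of 1 SD. Without scaling, the sign reversed for Drd3 oligo 1 (0.11), Drd4 oligo 2 (0.22), both Arrb2 oligos (0.048 and 0.13) and both M35077 oligos (0.55 and 0.65, and 0.14 and 0.24 with control-gene centring). Oligo 1 of AF171079 came to -0.23 with flagged spots, -0.086 with a scan-setting block and -0.071 without cortex 3 and thymus 2. It ran from -0.24 to 0.27 with each array left out. Oligo 2 of M35077 came to 0.019 with the scan-setting block. The M35077 pair came to 0.0099 with spot means, 0.080 with flagged spots and 0.29 without cortex 3 and thymus 2. It ran from -0.52 to 0.19 with each array left out. The Drd4 pair came to 0.060 without cortex 3 and thymus 2 and ran from -1.02 to 0.12 with each array left out. The causes were not tested. Single values were followed for the tested receptor oligos, the pathway oligos that passed in the main fit and the receptor pairs. Over the alternatives in which they were tested, 238 kept sign and side of the threshold. Another 71 kept the sign and lost the call, and 20 changed sign, some of them losing a call as well. Pathway oligos that gained a call are not among these. Replicate numbers share only a number (r of same-numbered deviations 0.17, -0.09 and 0.03); with them as a block 210 oligos passed, 4 of them receptors, Drd3 oligo 1 being lost (adjusted p = 0.0775, limma). The value table gives no receptor value, so that alternative could not be run. On thymus arrays the lowest log2 value above background was 9.25 to 10.07, against 8.34 to 8.99 on cortex arrays. This limits the Drd1, Drd2 and Drd3 readings in thymus. Drd3 oligo 2 was not above background on thymus 2 and thymus 3, nor Drd3 oligo 1 on thymus 2. The part of this higher limit in the differences on the thymus side was not tested.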
